A study of Homo sapiens with 3 samples.

Results

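CTPS1 (Entrez 1503), EIF4EBP2 (Entrez 1979), MARVELD1 (Entrez 83742) and LINC01433 (Entrez 728228) were 4 of the 10768 genes kept on the array (those with a mean level at or above 4.27, the median of all probe sets), each read by 1 probe set. They were chosen by their siYAP minus siNC difference, near or past 2-fold, so that difference is given as a description. They were named as genes moved mainly by YAP knockdown, and the levels bear this out for CTPS1 only: EIF4EBP2, MARVELD1 and LINC01433 were also at least 1.5-fold above the control in the siTAZ array.

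The series profiled an established lung cancer cell line, A549, of human origin on 1-colour whole-transcript microarrays. Cells received siNC (the control siRNA), siTAZ (against TAZ) or siYAP (against YAP) by lipid transfection (Lipofectamine RNAiMAX), in otherwise standard growth conditions, and total RNA was taken 48 h later. The 3 groups therefore shared the cell line, the transfection and the time, and differed in the siRNA. Each group had 1 array, so no value has an error, no test across cultures was possible and no p-value is given; the sequences of the siRNAs were not used here. Levels are RMA values on a log2 scale, in which a difference of 1 is 2-fold, and a level is comparable between arrays for the same gene but not between genes.

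YAP and TAZ (genes YAP1 and WWTR1) are transcriptional co-activators at the end of the Hippo pathway, which act on genes mainly through DNA-binding TEAD factors. CTPS1 encodes CTP synthase 1, which makes CTP from UTP with glutamine as the nitrogen donor and so supplies RNA, DNA and phospholipid synthesis. EIF4EBP2 encodes a repressor of cap-dependent translation that binds the cap-binding protein eIF4E until it is phosphorylated by mTORC1. MARVELD1 encodes a membrane protein with a MARVEL domain, a fold shared with occludin and other proteins of membrane contacts and vesicles. LINC01433 is a long intergenic non-coding RNA gene.

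The starts of these genes were read from RefSeq (GRCh38.p14) as windows of 250 bases before to 50 bases after each start. All 4 genes matched, with 2 starts for CTPS1 and 1 for each of the others. The windows are shown because EIF4EBP2, MARVELD1 and LINC01433 were high together while CTPS1 was low. On either strand they were searched for GGAATG (the core of the TEAD site), TGANTCA (a loose AP-1 pattern, N being any base) and CACGTG (the E-box). Capitals mark a match, of which there were 2, both in the window of the second CTPS1 start. The window of the first CTPS1 start held no match and is not printed. The printed windows lie on the plus strand at chr1:40988269-40988568 (CTPS1), chr10:70403895-70404194 (EIF4EBP2), chr10:97713480-97713779 (MARVELD1) and chr20:4192840-4193139 (LINC01433).
CTPS1, second start: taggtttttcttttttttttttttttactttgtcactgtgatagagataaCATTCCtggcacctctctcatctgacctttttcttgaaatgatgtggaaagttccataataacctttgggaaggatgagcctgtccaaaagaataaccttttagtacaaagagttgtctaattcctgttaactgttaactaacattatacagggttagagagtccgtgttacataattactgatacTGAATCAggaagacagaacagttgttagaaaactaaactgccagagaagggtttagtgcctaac
EIF4EBP2: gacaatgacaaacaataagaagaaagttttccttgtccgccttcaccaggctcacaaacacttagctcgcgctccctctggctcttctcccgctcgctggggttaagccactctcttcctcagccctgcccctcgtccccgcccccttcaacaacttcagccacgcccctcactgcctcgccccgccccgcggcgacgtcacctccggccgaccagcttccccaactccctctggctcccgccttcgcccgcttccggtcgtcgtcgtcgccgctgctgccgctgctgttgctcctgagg
MARVELD1: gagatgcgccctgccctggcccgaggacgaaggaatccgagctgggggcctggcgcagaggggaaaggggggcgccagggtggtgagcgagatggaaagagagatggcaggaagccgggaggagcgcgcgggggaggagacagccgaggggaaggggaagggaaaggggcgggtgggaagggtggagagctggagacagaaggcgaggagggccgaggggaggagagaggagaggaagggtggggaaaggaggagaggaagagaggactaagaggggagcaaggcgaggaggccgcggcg
LINC01433: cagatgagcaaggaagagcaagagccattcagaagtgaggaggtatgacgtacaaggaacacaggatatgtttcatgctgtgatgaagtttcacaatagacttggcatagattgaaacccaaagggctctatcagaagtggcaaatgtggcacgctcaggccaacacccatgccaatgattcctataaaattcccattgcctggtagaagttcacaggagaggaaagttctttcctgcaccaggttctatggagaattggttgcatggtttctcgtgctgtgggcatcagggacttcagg

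In the second CTPS1 window the TEAD core, read as CATTCC on the gene's strand, began 200 bases before the start. The match to the loose AP-1 pattern, TGAATCA with A at N, began 14 bases before the start. The first CTPS1 start (chr1:40979446-40979745) held none of the 3 motifs. Among all 35116 RefSeq windows of 300 bases, 14.03% held the TEAD core, 7.71% the loose AP-1 pattern and 7.26% the E-box. Of the 5 windows of these genes 1 held the TEAD core. The base composition of the windows differed widely, a feature looked at after the sequences were seen. A and G made up 80.3% of the MARVELD1 window on the gene's strand, and 99.95% of all windows had a lower share. The EIF4EBP2 window was nearly the reverse, with 34.0% A and G, and 0.775% of all windows lay lower. The second CTPS1 start was 35.3% G and C, against 71.7% at its first start and a median of 58.7% over all windows. Which CTPS1 start the cells used was not measured.

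The siYAP array carried the lower YAP1 level that its label implies. YAP1 was 8.45 in siNC, 8.24 in siTAZ and 6.87 in siYAP, and WWTR1 was 6.50, 5.81 and 6.50. By these probe sets YAP1 was 2.99-fold lower in siYAP and WWTR1 1.61-fold lower in siTAZ. Another, dimmer YAP1 probe set was at 4.95, 4.75 and 4.38, a difference of -0.57 in siYAP. Of 8 epithelial markers 7 had a named probe set, and KRT18 and EPCAM were clearly measured, at 11.6 and 8.23 in siNC. In siTAZ KRT7 was lower, at 6.51, 6.10 and 6.51 on the siNC, siTAZ and siYAP arrays, as was KRT18 at 11.6, 11.4 and 11.6, while CLDN4 was dim at 4.67 and ESRP1 lay below the filter at 3.80. The summed linear level of the epithelial markers was 3629 in siNC, 3225 in siTAZ and 3613 in siYAP. The samples were of 1 cell line, A549. In its bulk RNA, fewer cells with a transcript and less of it per cell cannot be told apart. Among markers of other cell types, CD68 and LUM were higher in both knockdown arrays (by 0.57 and 0.69 in siTAZ, and by 0.59 and 0.66 in siYAP), in the direction of EIF4EBP2, MARVELD1 and LINC01433. The other kept markers of these types did not share this direction to a like size: THY1 was at -0.16 in both, and CD14 at 0 in siTAZ and 0.059 in siYAP. For the 3 of 6 leukocyte markers with a named probe set, the summed linear level was 381 in siNC, 548 in siTAZ and 555 in siYAP; for the 3 of 6 fibroblast markers it was 217, 320 and 314. CD68 and LUM were the brightest markers in these sums, at 8.43 and 7.45 in siNC. LYZ and DCN lay below the 4.27 filter with identical levels on the 3 arrays, and the 3 named endothelial markers summed to 48.4, 51.2 and 50.3. The part of these markers in the differences of the 4 genes was not tested.

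CTPS1 was the member with a lower level after YAP knockdown. Its level was 7.87 in siNC, 7.62 in siTAZ and 6.86 in siYAP. The siYAP array thus stood well below both others. The siTAZ level was nearer to siNC but also lower, and 11.3% of all kept genes differed by more in siTAZ minus siNC. CTPS1 was 2.002-fold below the control in the siYAP array, at 49.96% of the control level, and 1.19-fold below it in the siTAZ array, at 84.1%. In the direct comparison CTPS1 was 0.75 lower in siYAP than in siTAZ, a 1.68-fold difference and the eighth lowest (rank 8) of 10768 genes.

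EIF4EBP2 was higher in both knockdown arrays. Its level was 8.85 in siNC, 9.47 in siTAZ and 9.99 in siYAP, so the siTAZ array lay about midway between the other two. Against the control EIF4EBP2 was 2.20-fold higher in siYAP and 1.53-fold higher in siTAZ. The siTAZ difference was 54.0% of the siYAP difference on the log2 scale. EIF4EBP2 was 0.52 higher in siYAP than in siTAZ, or 1.44-fold.

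MARVELD1 was 6.12 in siNC, 6.98 in siTAZ and 7.16 in siYAP. Here both knockdown arrays were high and close together, with the control alone at the low end. MARVELD1 was 2.06-fold above the control in siYAP and 1.81-fold in siTAZ. The difference between the knockdown arrays was 0.18, or 1.14-fold, and 10.1% of all kept genes differed by more between these arrays. By its own levels MARVELD1 was a gene high in both knockdowns rather than mainly in one.

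LINC01433 had the largest siYAP difference of the 4 genes. Its level was 6.82 in siNC, 7.64 in siTAZ and 8.05 in siYAP. Both knockdown arrays were again high, with siYAP above siTAZ. LINC01433 was 2.34-fold above the control in siYAP, the third highest (rank 3) of all kept genes, and 1.77-fold in siTAZ. Between the knockdown arrays it was 0.40 higher in siYAP, or 1.32-fold.

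**Figure D1:**
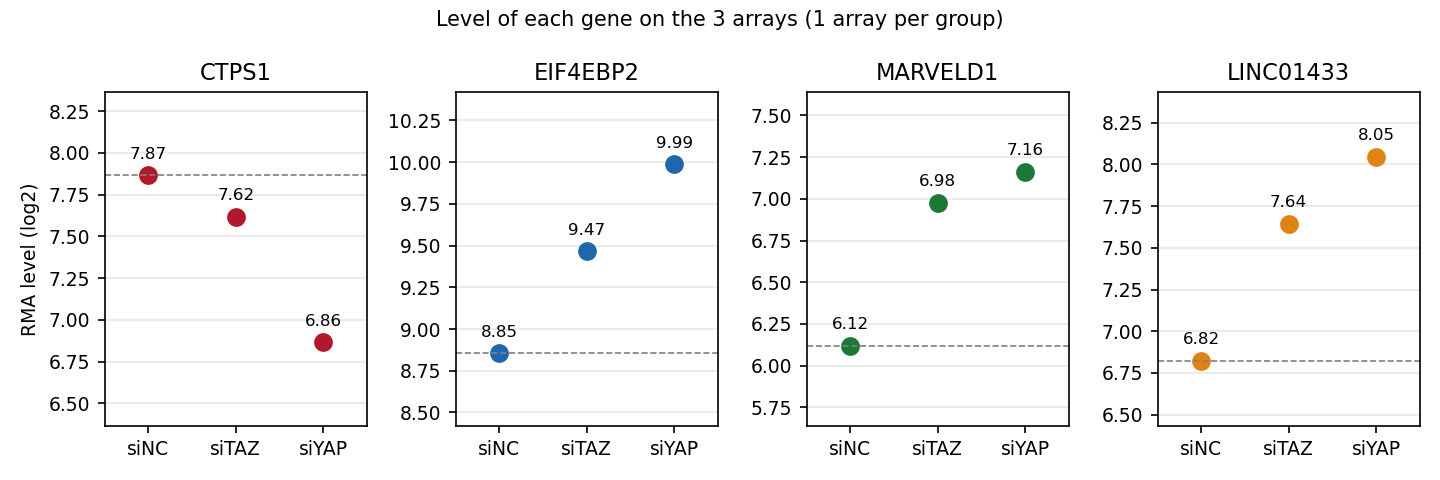
RMA level (log2) of CTPS1, EIF4EBP2, MARVELD1 and LINC01433 on the siNC, siTAZ and siYAP arrays, with 1 point per array and the siNC level as a dashed line; each panel spans the same 2 log2 units but has its own range. In each panel the siTAZ point lies between the others, near siNC for CTPS1 (7.62 against 7.87) and near siYAP for MARVELD1 (6.98 against 7.16).

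Against all kept genes, differences of this size from the control were rare. In siYAP minus siNC 0.0743% of genes were at least 2-fold higher (8 genes) and 0.121% at least 2-fold lower (13 genes), and the 4 genes belong to these by choice, so nothing is read from it. In siTAZ minus siNC 3 of the 4 were at least 1.5-fold higher, where 0.762% of all kept genes were, and none was at least 2-fold away in either direction (0.316% of kept genes were). The siTAZ and siYAP differences share the control array, so a low or high control value would move both. In siYAP minus siTAZ, which does not subtract the control, CTPS1 was at least 1.5-fold lower and none of the other 3 was at least 1.5-fold higher, against 0.176% and 0.566% of kept genes. The siYAP level enters this difference too, so it is not independent of the choice of genes.

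The spread over all genes gives a scale where replicates are lacking, although it is no replicate error. The size of siYAP minus siTAZ had a 95th percentile of 0.27 and a 99th percentile of 0.53 over kept genes. These percentiles include the 53.9% of kept genes with identical siTAZ and siYAP levels, which lower them. CTPS1 (0.75 in size) lay beyond the 99th percentile, EIF4EBP2 (0.52) just under it and LINC01433 (0.40) between the 2 bounds. MARVELD1 (0.18) lay inside the 95th percentile. The 4 genes each had 3 different levels on the 3 arrays, as did 28.5% of kept genes, whereas 41.1% had exactly the same level on all 3. Levels equal to within 1e-09 on separate arrays are not read here as a measured lack of change. The source of these equal levels was not tested.

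**Figure D2:**
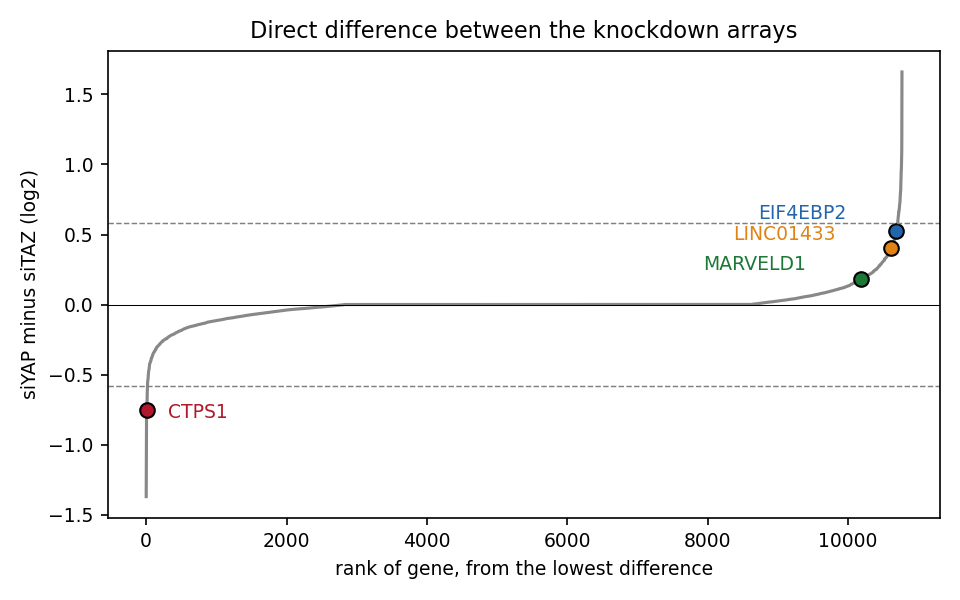
Kept genes ranked by siYAP minus siTAZ (log2), with the 4 genes as coloured points and dashed lines at 1.5-fold. CTPS1 lies at -0.75 among the lowest genes, and MARVELD1, LINC01433 and EIF4EBP2 at 0.18, 0.40 and 0.52 lie under the upper line.

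The genes next to the 2-fold bound show how fine the choice was. On the lower side CTPS1 (-1.001) was the last gene inside the bound in siYAP minus siNC, beside the microRNA gene MIR4454 (-1.002) and POMK, an O-mannose kinase (-1.005). Just outside lay the thrombin receptor family gene F2RL2 (-0.99), the polycomb-related gene SCML2 (-0.98) and FBXW10 (-0.93). In the siTAZ array MIR4454, POMK, F2RL2 and FBXW10 were at -1.002, -0.948, -1.201 and -0.998, whereas CTPS1 was at -0.25 and SCML2 at -0.47. On the higher side MARVELD1 (1.04), TRANK1 (1.04) and the spermidine synthase gene SRM (1.02) were just inside, and the ubiquitin ligase gene TRIM31 (0.99), KRTAP10-5 (0.98) and the transcription factor gene NFIC (0.97) just outside.

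A siYAP difference with little siTAZ difference, the pattern of CTPS1, was uncommon. Of 9636 kept genes under 1.2-fold from the control in siTAZ, 5 were at least 1.5-fold lower in siYAP and 4 at least 1.5-fold higher. At 2-fold there were 2 lower, YAP1 itself and CTPS1, and 0 higher. CTPS1 was picked for its siYAP value, so nothing is read from its place among these. CTPS1 belongs to this group narrowly, at 1.19-fold in siTAZ, and leaves it when differences are shifted by the median over genes that are not identical to the control (1.21-fold) and with repeated quantile normalization (1.205-fold). The phosphate exporter gene XPR1 was 9.92 in siNC, 10.03 in siTAZ and 9.28 in siYAP, and was the next protein-coding gene after CTPS1 in this group. The microRNA genes MIR4526 and MIR1226 were 0.71 and 0.61 lower in siYAP. On the higher side RGCC, a regulator of the cell cycle, was 6.05 in siNC, 6.17 in siTAZ and 6.83 in siYAP, 1.72-fold above the control in siYAP. It was followed by the pseudogene TPI1P2 (0.76), whose probe set may also report its parent gene TPI1, by MIR521-1 (0.66, from a dim control level of 4.17) and MIR4640 (0.62), and by SLC51B (0.55), a subunit of the bile acid exporter, at 1.47-fold. EIF4EBP2, MARVELD1 and LINC01433 are outside this group.

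**Figure D3:**
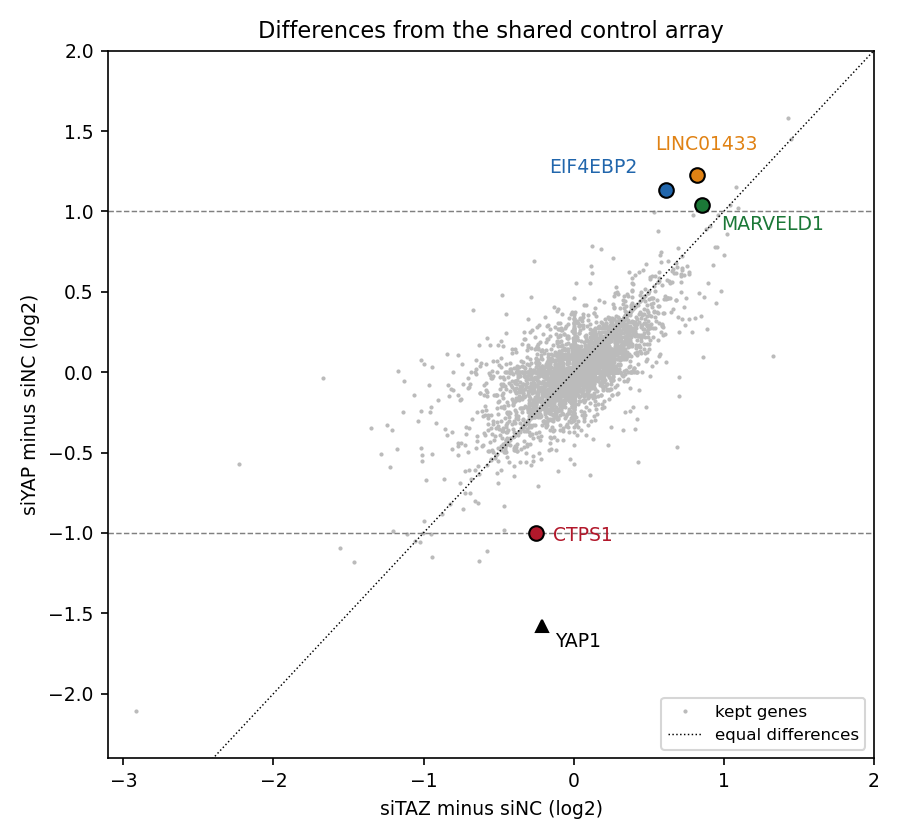
siYAP minus siNC against siTAZ minus siNC (both log2) for all kept genes (grey), the 4 genes (coloured) and YAP1 (triangle); the dotted line marks equal differences and the dashed lines 2-fold in siYAP. CTPS1 (-0.25, -1.001) stands off the dotted line below, while MARVELD1 (0.86, 1.04) lies close to it; both axes subtract the same control array.

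The genes most like each member were found by the distance between their siTAZ and siYAP differences from the control, that is over 2 differences from 3 arrays. The nearest to CTPS1 was SCML2 at a distance of 0.22 (log2), with levels of 7.59, 7.12 and 6.61 in siNC, siTAZ and siYAP. It was followed by GXYLT1, a xylosyltransferase, at 0.27 and MIR4526 at 0.29, and by CXCL8 (interleukin-8) at 0.34, with a siYAP level of 4.02, below the filter level, and CNTNAP1 at 0.39. EIF4EBP2 was nearest to TRIM31, at 0.16, whose levels were 7.83, 8.37 and 8.83. Its next were LINC01433 (0.23), NFIC (0.24), MIR3127 (0.26, with a siNC level of 3.79, below the filter level) and MARVELD1 (0.26). MARVELD1 was nearest to NFIC, at 0.091, with levels of 8.28, 9.07 and 9.25, and then to KRTAP10-5 (0.12), PRB2 (0.14), the atypical MAP kinase gene MAPK4 (0.15) and TRANK1 (0.18). LINC01433 was nearest to MARVELD1 (0.19) and EIF4EBP2 (0.23), and then to NFIC (0.25), the ribosome biogenesis gene NOC4L (0.27) and KRTAP10-5 (0.29). The 3 higher members lie close to each other in part because each was picked for a high siYAP value. KRTAP10-5 and PRB2 belong to multigene families whose probes may share signal.

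The closest relatives of the members were at most 1.36-fold from the control. CTPS2, the second CTP synthase, was 7.82 in siNC, 7.58 in siTAZ and 7.99 in siYAP. CTPS1 and CTPS2 thus had like differences in siTAZ (-0.25 and -0.24) and differences of opposite sign in siYAP (-1.001 and 0.17). EIF4EBP1, the better known eIF4E-binding protein, was 7.44 in siNC and 7.64 on both knockdown arrays. EIF4E, their target, was 5.205 in siNC and siTAZ and 5.104 in siYAP. Of the MARVEL domain proteins of tricellular and tight junctions, MARVELD2 (tricellulin) was 7.02 in siNC and 7.06 on both knockdown arrays, and MARVELD3 was 4.75 in siNC and 5.19 on both, a 1.36-fold difference. EIF4EBP3 and CAD, the first enzyme of pyrimidine synthesis, had no named probe set and have no value here.

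The nearest gene with a named probe set on each side of a member in the RefSeq gene table was also read; genes without one may lie between. Beside MARVELD1, AVPI1, a gene induced by vasopressin, was 8.31 in siNC, 9.03 in siTAZ and 8.92 in siYAP. It was 1.64-fold and 1.52-fold above the control, both past 1.5-fold, with siTAZ the higher of the knockdown arrays. SFRP5 on the other side had the same level on all arrays. Beside LINC01433, SMOX, which encodes spermine oxidase, was 8.70, 9.08 and 8.96, or 1.31-fold and 1.201-fold above the control, and ADRA1D was identical throughout. The neighbours of EIF4EBP2 were LRRC20 (0 in siYAP and -0.18 in siTAZ) and NODAL, at a dim 4.21 on all arrays. Those of CTPS1 were SLFNL1-AS1, identical on the 3 arrays, and MIR30C1, dim at 3.13. No gene of the RefSeq table overlapped a member.

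**Figure D4:**
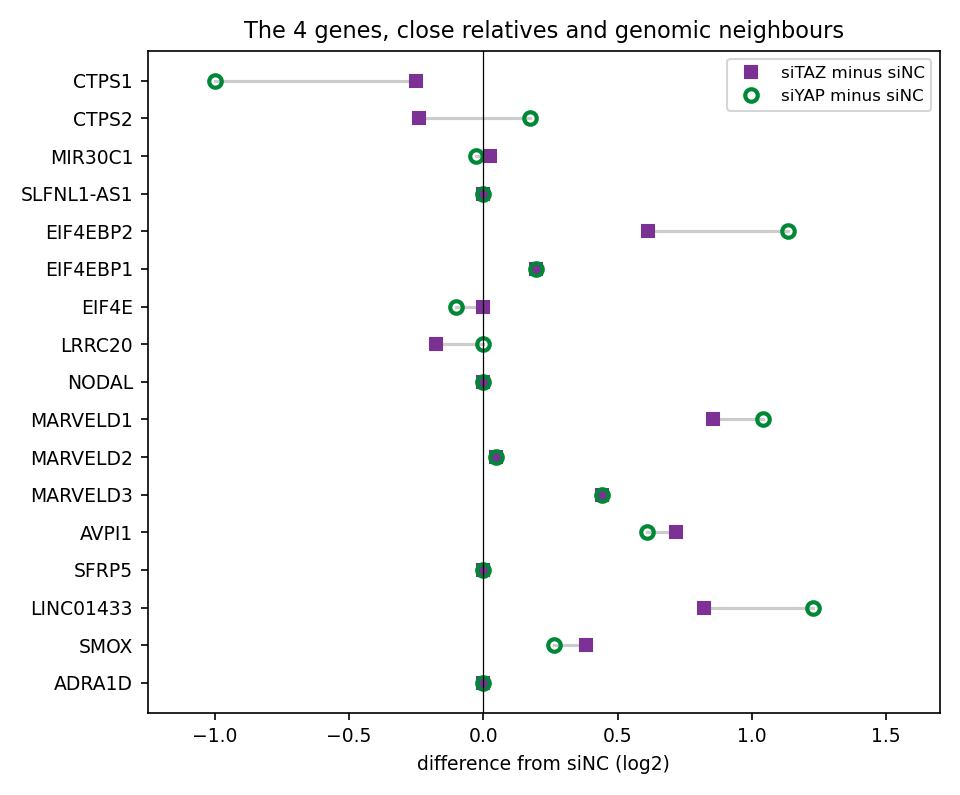
Difference from siNC (log2) in the siTAZ (squares) and siYAP (open circles) arrays for the 4 genes, each followed by its close relatives and its nearest named neighbours in the genome. CTPS1 (-1.001) and CTPS2 (0.17) lie on opposite sides of 0 in siYAP, and AVPI1 lies past 0.6 in both.

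The pathways around the members were described with 6 lists of related genes, which kept 99 genes other than the members. In siYAP minus siNC 0 of these 99 genes were at least 1.5-fold from the control, where 0.901% of all kept genes were. In siTAZ minus siNC there were 3 (3.03%, against 1.78%). Shares of so few genes are close to the background and are not read as a result. The median of every list in siYAP minus siNC was 0, as it was over all kept genes, of which 27.0% were higher, 21.7% lower and 51.3% identical to the control by any amount. The counts below include the members, which were picked for their siYAP value.

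Of the pyrimidine and CTP metabolism genes, 22 of 30 were kept, and in siYAP 9 were higher, 5 lower and 8 identical to the control by any amount, against 27.0%, 21.7% and 51.3% of all kept genes. CTPS1, picked for its siYAP value, was the only member at least 1.5-fold away. TYMS, the thymidylate synthase gene, was 0.46 higher, RRM1, a ribonucleotide reductase subunit, 0.21 higher, and CDA, cytidine deaminase, 0.18 higher. The pyrimidine synthesis genes DHODH and UMPS were at 0.02 and 0. Of 12 purine synthesis genes 4 were higher, 3 lower and 5 identical, with IMPDH2 at 0.30, APRT at 0.23, PPAT at -0.21 and PFAS at 0.13. Of 15 genes around the use of CTP in phospholipid and sialic acid synthesis 11 were kept, with 3 higher, 3 lower and 5 identical. Their enzymes use CTP, prepare the substrates it activates or use the CDP-linked products. PCYT1A, PCYT1B and PCYT2 had no named probe set. The phosphatidylinositol synthase gene CDIPT was at 0.37, the ethanolamine kinase gene ETNK1 at -0.26, and CDS1 and PGS1 at 0.16 and 0.15.

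Around EIF4EBP2, 14 of 21 cap-binding and initiation genes were kept. In siYAP 6 of them were higher, 4 lower and 4 identical, against 27.0%, 21.7% and 51.3% of all kept genes. EIF4EBP2 was the 1 cap-binding or initiation gene past 1.5-fold in siYAP, where 0.901% of all kept genes were. It was also the 1 such gene in siTAZ, where 1.78% of all kept genes were. The next by size in siYAP were EIF4EBP1 (0.20), MKNK2, an eIF4E kinase (0.15), and EIF4E (-0.10). The EIF4G and EIF4A genes had no named probe set. In the mTORC1 list, 22 of 30 genes were kept, with 7 higher, 2 lower and 13 identical in siYAP. NPRL3, a subunit of the GATOR1 inhibitor of mTORC1, was 0.46 higher on both knockdown arrays, and TSC1, another inhibitor of the pathway, was 0.30 lower in siYAP and 0.20 lower in siTAZ. RRAGD was at 0.14 and DDIT4 at 0.08 in siYAP, and MTOR itself was identical on the 3 arrays.

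Of 27 MARVEL domain genes 21 were kept, with 6 higher, 4 lower and 11 identical in siYAP, and MARVELD1, picked for its siYAP value, was the 1 gene of them past 1.5-fold in either knockdown (0.901% and 1.78% of all kept genes in siYAP and siTAZ). After MARVELD3 (0.44), the next by size were SYNGR2, a synaptogyrin (0.22), CMTM3 (-0.18) and OCLN, occludin (-0.13). LINC01433 was set beside every gene named LINC with a number. Of 458 such genes 155 were kept. In siYAP 27 of them were higher, 30 lower and 98 identical, against 27.0%, 21.7% and 51.3% of all kept genes. Of the kept ones LINC01433 alone was past 1.5-fold, in siYAP and in siTAZ, against 0.901% and 1.78% of all kept genes. Without the filter 2 of the LINC genes were past 1.5-fold in siYAP and 2 in siTAZ. The next in siYAP were LINC00488 (-0.52, from 5.88 in siNC to 5.36 on both knockdown arrays), LINC01743 (0.42, from a dim 4.47) and LINC00658 (-0.39). In siYAP minus siTAZ LINC00842 (0.53) and LINC01128 (0.45) differed by more than LINC01433 (0.40).

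**Figure D5:**
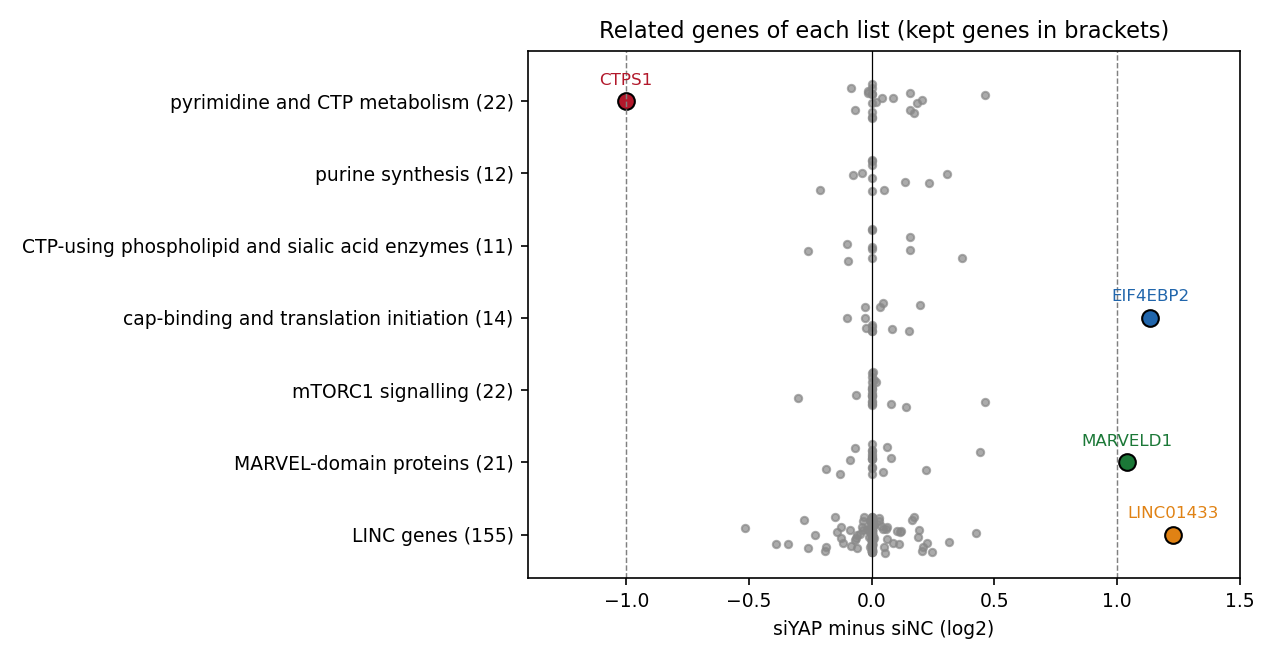
siYAP minus siNC (log2) for the kept genes of each list (grey) and the 4 genes (coloured), with dashed lines at 2-fold; points are spread vertically for sight only. The grey points lie between -0.52 (LINC00488) and 0.46 (TYMS and NPRL3), inside the 4 coloured ones.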

How the data were processed

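RNA of A549 cells was profiled 48 h after transfection of siNC, siTAZ or siYAP, 1 array each, with 500 ng total RNA labelled per array, per the labels' protocols. The authors deposited RMA values, per the submitters' processing notes; neither its version nor a build was given in the sources used here. The deposited values were taken to be log2, as their range was 0.961 to 13.5, with array medians of 4.26 to 4.28. RMA's quantile normalization removes differences in total RNA per cell. Levels were called equal within 1e-09.

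Of 53617 probe sets, 16098 had 1 symbol in the platform annotation. The other 37519, with no symbol or with several, were counted as unnamed. On update to RefSeq (GRCh38.p14) 0 symbols changed. The brightest probe set stood for each of 14884 genes, and genes with a mean at or above 4.27, the median of all probe sets, were kept (10768). Differences, folds, ranks and lists were computed in Python 3.11.15 with pandas 2.3.3, and lowess with statsmodels 0.14.6; the counting was tested on simulated data. The number of arrays limits the precision.

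The members and lists were chosen with earlier results of these data known. Named genes were the members, YAP1 and WWTR1, the 5 nearest genes by pattern, list genes past 1.5-fold or among the 4 largest in siYAP, close relatives, nearest named genomic neighbours, the 3 genes on either side of 2-fold, and the 5 of each sign under 1.2-fold in siTAZ. Other genes were named once their values had been seen. Alternatives tried were a 75th percentile filter, no filter, a shift by the median difference over genes not identical between the arrays (the median shift), subtraction of a lowess trend (span 0.4), repeated quantile normalization, averaged probe sets and a changed reference. An alternative without genes of equal siTAZ and siYAP level was chosen after seeing the data.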

Additional observations from a re-analysis of the deposited data

How the results depend on the processing

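With siNC as the reference, the differences of the 4 genes kept their direction and their side of 1.5-fold under the 7 alternatives run: siYAP minus siNC lay between -1.019 and -1.001 for CTPS1, 1.12 and 1.13 for EIF4EBP2, 1.02 and 1.04 for MARVELD1 and 1.21 and 1.23 for LINC01433. The closest to its bound was EIF4EBP2 in siTAZ, at 0.586 with the median shift, just past 1.5-fold. Each member has 1 probe set, so averaging probe sets could not move it. Nor could changing the filter or leaving out genes of equal siTAZ and siYAP level. The lowess trend lay near 0, and its subtraction moved CTPS1 in siYAP only from -1.0012 to -1.0013. With siNC as the reference, only the median shift and repeated quantile normalization had room to move the members. With the mean of siNC and the other knockdown as reference, CTPS1, EIF4EBP2, MARVELD1 and LINC01433 were at -0.88, 0.83, 0.61 and 0.82 in siYAP, all under 2-fold. In siTAZ this reference gave 0.046 for EIF4EBP2, 0.34 for MARVELD1 and 0.21 for LINC01433, all under 1.5-fold, and turned CTPS1 from -0.25 to 0.25; the siYAP level is part of that reference. It left 19 genes at least 1.5-fold higher and 12 lower in siYAP (0 and 1 at 2-fold), and 25 higher and 67 lower in siTAZ (1 and 13 at 2-fold). Without the filter, 32 genes were at least 1.5-fold and 5 at least 2-fold lower in siYAP than in siTAZ, with 14884 genes counted. The other 171 values of the members and of gene counts over all genes stayed on their side of 1.5-fold or within 1.5 times, that of CTPS1 in siTAZ under the changed reference by size alone, as did 398 of 414 list counts, list medians and differences of CDS2, CDIPT, TYMS and AVPI1. These tallies include the settings that could not move a member, so they overstate how much was tried. No paired analysis was possible because each group has 1 array. The limits of these data are the single array per group, the shared control, the many exactly equal levels and the unknown number of probes behind each level.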

Other observations

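Of the 99 related genes, 3 (3.03%) were at least 1.5-fold from the control in the siTAZ array, against 1.78% of all kept genes. None of the 99 was that far from the control in the siYAP array. Each of the 3 is described here after its values were seen. CDS2, which makes CDP-diacylglycerol from CTP and phosphatidic acid, was 7.77 in siNC, 7.07 in siTAZ and 7.68 in siYAP, 1.63-fold lower in siTAZ and 1.07-fold lower in siYAP. CDIPT, which uses CDP-diacylglycerol to make phosphatidylinositol, was 8.41, 9.01 and 8.78, 1.51-fold higher in siTAZ and 1.29-fold in siYAP. CDIPT sits at the bound: it was 1.49-fold higher in siTAZ with the median shift and 1.496-fold with repeated quantile normalization, both under 1.5-fold. TYMS was 8.87, 9.51 and 9.33, 1.56-fold higher in siTAZ and 1.38-fold in siYAP. Between the knockdown arrays CDS2 differed by 0.61, CDIPT by -0.23 and TYMS by -0.18 (siYAP minus siTAZ), with no replicate to set these against.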
